A study of Rattus norvegicus with 12 samples.

Results

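Tumour necrosis factor alpha (TNFα) signals through the receptors TNFR1 and TNFR2, and the cells compared here carry a knockout label for the gene of the second, Tnfrsf1b. RNA-seq libraries of rat hepatic progenitor cells (HPCs) labelled Tnfrsf1β-/- and given TNFα for 1 hour were set against libraries of wild-type (WT) HPCs given TNFα for 1 hour. These are 4 of the 12 libraries of the study, 2 in each group, and were chosen by their genotype and treatment labels. Of the 22384 lines of the expression table with a gene symbol, the 11860 with a mean of at least 1 FPKM (fragments per kilobase of transcript, relative to all mapped fragments of the library) over the 12 libraries were tested. All cells are labelled as gestation day 13.5. Both groups received TNFα, so the comparison itself holds no untreated cells. Cells given TNFα are called treated.

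The other 8 libraries are 2 each of Tnfrsf1α-/- cells given TNFα for 1 hour, untreated Tnfrsf1β-/- cells, untreated Tnfrsf1α-/- cells and untreated WT cells. They entered the estimate of the spread, and their levels are quoted as background. The labels do not say how the knockouts were made, whether a label stands for 1 clone, or whether the libraries that share a label were separate cultures or separate animals. The p-values therefore rest on a spread between libraries that may be technical only. The title of the series links TNFR2 with hnRNPK, which binds RNA, and with YAP, a co-activator of transcription, in liver cancer.

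HPCs are immature cells of the liver from which hepatocytes and bile duct cells can form. TNFR1 is carried by most cell types and holds a death domain that recruits TRADD and RIPK1, while TNFR2 has no death domain and binds TRAF2 directly. Both receptors can lead to the release of NF-kB from its inhibitors, after which NF-kB drives chemokines, adhesion molecules and its own inhibitors within the first hours. YAP and its relative TAZ (Wwtr1) are held back by the kinases of the Hippo pathway and act on genes through the TEAD factors.

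Values are levels on the log2(FPKM + 1) scale, each pair being replicate 1 and replicate 2. A difference is the mean of treated Tnfrsf1β-/- minus the mean of treated WT on that scale, in log2 units, with its standard error (SE) from limma. A gene is called higher or lower where limma's Benjamini-Hochberg adjusted p over all 11860 genes was under 0.05. Genes listed at 0 in both libraries of a group are given without a difference. Such a group shows no spread and lowers the estimate shared by all groups, so the p-values of these genes can be too small. The filter on low values is a mean over all 12 libraries, so a gene could pass it through the group where it is high, and a count over the tested members of a list describes those members and not the whole list.

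Tnfrsf1b, the gene of the label, was listed at 0 and 0 in treated Tnfrsf1β-/- cells, against 2.58 and 2.43 in treated WT cells. Its limma adjusted p was 0.065, and it was not called. The 2 libraries labelled Tnfrsf1α-/- with TNFα, which share the estimate of the spread, lay apart at 0 and 4.09. Without that pair in the fit the limma adjusted p was 5.1e-09. Every group left in that fit but treated WT was at 0 to 0.027, so its SE of 0.065 rests largely on groups without spread. With only the 4 libraries compared in the fit the SE was 0.129 and the limma adjusted p 1.4e-04. Untreated WT cells were also at 0 and 0 and untreated Tnfrsf1β-/- cells at 0 and 0, so this gene separated the genotypes in the treated libraries and not in the untreated ones. Tnfrsf1a, the gene of TNFR1, was at 4.85 and 4.71 in treated Tnfrsf1β-/- cells and 5.65 and 5.63 in treated WT cells (difference -0.86, SE 0.19, limma adjusted p = 0.0051). That call was lost under median-ratio scaling, with a difference of -0.16 (limma adjusted p = 0.51), and under quantile normalization, with -0.18 (limma adjusted p = 0.39). Libraries labelled Tnfrsf1α-/- held Tnfrsf1a at 5.65 and 5.95 with TNFα and 5.94 and 6.13 without it. The transcript was thus not lower there than in WT libraries of the same treatment, which without TNFα were at 5.45 and 5.15. A transcript level does not show whether the receptor protein was made.

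The libraries differed in make-up as well as in single genes. Taken across the 11860 genes, which are no independent replicates of each other, the rank correlation after Spearman between the compared groups was 0.637 to 0.647, while it was 0.974 within the treated Tnfrsf1β-/- pair and 0.994 within the treated WT pair. Treated Tnfrsf1β-/- libraries were at 0.953 to 0.983 to untreated WT libraries, while treated WT libraries were at 0.638 to 0.646 to them. Treated Tnfrsf1β-/- libraries were thus as close to untreated WT libraries as to each other, and untreated Tnfrsf1β-/- libraries, which carry the same genotype label, were further from them, at 0.736 to 0.792. The libraries do not group by genotype label, and an exchange of labels between libraries cannot be told apart from a difference between the labelled groups with these files; each result is for the libraries as labelled. Total FPKM was 1076956 and 1176115 in treated Tnfrsf1β-/- libraries, against 1958823 and 2085916 in treated WT libraries. Ribosomal protein genes held 21.1% and 23.7% of it in treated Tnfrsf1β-/- libraries and 7.95% and 8.33% in treated WT libraries, and the aldo-keto reductases Akr1b10, Akr1c1, Akr1c2 and Akr1c3 held 0.347% and 0.389%, against 14.6% and 17%. An FPKM is a share of its library, and the part of this make-up in the differences that follow was not tested. In bulk RNA, fewer cells of a type and less RNA of a gene per cell cannot be told apart.

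Of the 11860 genes 6046 (51.0%) were called, 1743 (14.7%) as higher and 4303 (36.3%) as lower in treated Tnfrsf1β-/- cells. In all 6046 the libraries of the groups did not overlap; counted over all genes, whether called or not, both treated Tnfrsf1β-/- libraries lay above both treated WT libraries in 29.9% and below them in 54.6%. The median difference over all genes was -0.41, so a gene near that value moved with the bulk of the table. Median-ratio scaling, which puts that median at 0.14, turned the split to 3059 higher and 2541 lower (25.8% and 21.4% of the genes), and quantile normalization, with a median of 0.05, gave 2839 higher and 2515 lower. The balance of higher and lower calls therefore rests on the scaling. With the 2 libraries labelled Tnfrsf1α-/- with TNFα left out, called the fit without the Tnfrsf1α-/- pair, 2603 genes were higher and 5212 lower (21.9% and 43.9%). Differences of over 3 log2 units were called in 381 genes as higher and in 870 as lower, and differences of over 5 in 140 and 404. Of the genes called lower 332 (2.80% of those tested) were listed at 0 in both treated Tnfrsf1β-/- libraries, and of those called higher 301 (2.54%) were listed at 0 in both treated WT libraries.

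**Figure D1:**
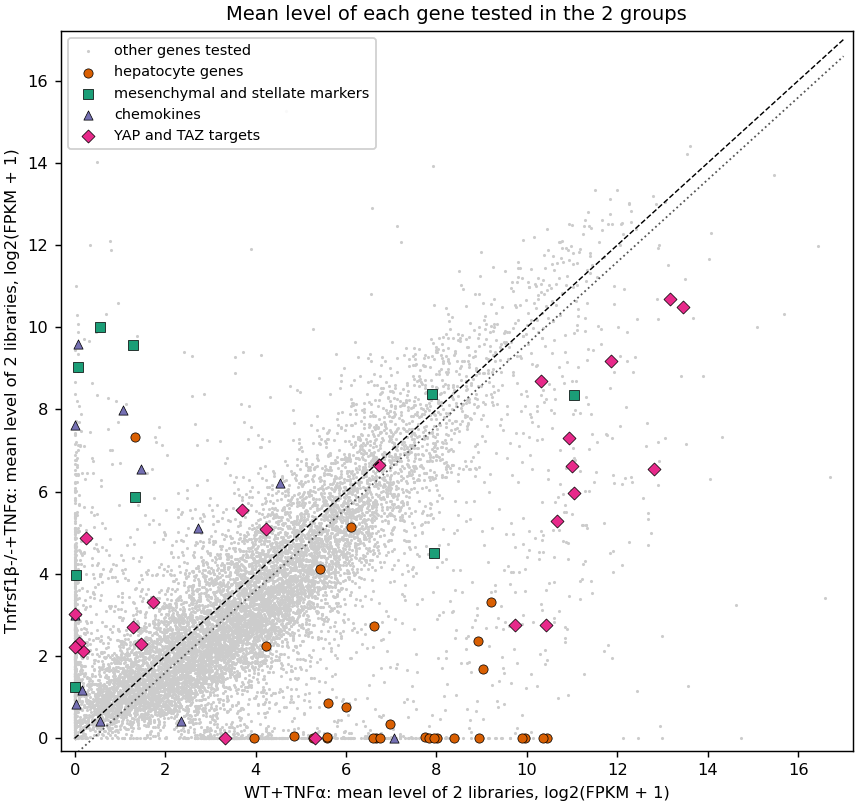
Mean level of each of the 11860 genes tested in treated Tnfrsf1β-/- cells (vertical axis) and treated WT cells (horizontal axis), both in log2(FPKM + 1), 2 libraries each. The dashed line marks equal levels and the dotted line the median difference of -0.41; hepatocyte genes lie at the bottom right, most chemokines and mesenchymal markers at the upper left, and the YAP and TAZ targets on both sides.

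Genes of the differentiated hepatocyte were lower with few exceptions. Of 21 genes for plasma proteins secreted by the liver, all are in the table and 17 were tested. Of these, 16 were lower in treated Tnfrsf1β-/- cells and none was higher (94.1% and 0%, against 36.3% and 14.7% of all genes). The median difference was -6.60, against -0.41 over all genes. The counts were the same under both scalings. Alb, serum albumin, was listed at 0 and 0 in treated Tnfrsf1β-/- cells, against 10.01 and 9.92 in treated WT cells (limma adjusted p = 1.6e-09). Ahsg, fetuin-A, was listed at 0 and 0 in treated Tnfrsf1β-/- cells and at 10.43 and 10.48 in treated WT cells (limma adjusted p = 1.6e-09). Ttr, the thyroid hormone carrier transthyretin, was listed at 0 and 0 in treated Tnfrsf1β-/- cells, against 10.24 and 10.46 in treated WT cells (limma adjusted p = 1.6e-09). Altogether 9 of the 16 were listed at 0 in both treated Tnfrsf1β-/- libraries, among them Afp, the fetal plasma protein alpha-fetoprotein, which was at 5.78 and 5.37 in treated WT cells (limma adjusted p = 1.0e-08). Tf, the iron carrier transferrin, was still measured, at 3.38 and 3.27 in treated Tnfrsf1β-/- cells and 9.21 and 9.20 in treated WT cells (difference -5.88, SE 0.34, limma adjusted p = 1.1e-06). Apoa1, the main protein of high-density lipoprotein, was at 0.31 and 0.40 in treated Tnfrsf1β-/- cells and 6.85 and 7.10 in treated WT cells (difference -6.62, SE 0.19, limma adjusted p = 1.3e-08). Ambp, the precursor of alpha-1-microglobulin, did not pass, at 4.63 and 5.66 in treated Tnfrsf1β-/- cells and 5.81 and 6.40 in treated WT cells (difference -0.96, SE 0.43, limma adjusted p = 0.091).

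Untreated cells lay with the treated Tnfrsf1β-/- libraries for these genes. Summed over the 21 plasma protein genes, FPKM was 40.4 to 70.8 in treated Tnfrsf1β-/- libraries, 21.1 to 22.4 in untreated Tnfrsf1β-/- libraries and 26.1 to 35.0 in untreated WT libraries, against 6094 to 6222 in treated WT libraries. Albumin itself was listed at 0 and 0 in untreated Tnfrsf1β-/- cells and 0 and 0 in untreated WT cells, so the high values were those of treated WT cells. Libraries labelled Tnfrsf1α-/- with TNFα had sums of 1232 to 1250, of which Ambp, at a level of 10.27 and 10.24, made up most.

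Enzymes of hepatocyte metabolism followed the same order. Of 18 genes with a line in the file 12 were tested. Of these 11 were lower and 1 was higher (91.7% and 8.33%, against 36.3% and 14.7% of all genes). Among the 11 lower, 6 were listed at 0 in both treated Tnfrsf1β-/- libraries. The other 6 in the file were below the filter, and of these Cyp2e1, Cyp7a1, Otc, Slc10a1 and Slco1b2 were at 0 to 0.072 in treated WT cells too. The median difference was -6.01. Pck1, the enzyme that commits carbon to glucose synthesis, was listed at 0 and 0 in treated Tnfrsf1β-/- cells and at 8.96 and 8.90 in treated WT cells (limma adjusted p = 1.6e-09). Fabp1, the liver fatty acid binding protein, was listed at 0 and 0 in treated Tnfrsf1β-/- cells, against 9.92 and 9.86 in treated WT cells (limma adjusted p = 1.6e-09). Tat, which breaks down tyrosine, was listed at 0 and 0 in treated Tnfrsf1β-/- cells, against 8.0 and 7.90 in treated WT cells (limma adjusted p = 1.7e-09). Ass1, a urea cycle enzyme, was at 1.67 and 1.71 in treated Tnfrsf1β-/- cells and 9.07 and 8.97 in treated WT cells (difference -7.33, SE 0.98, limma adjusted p = 3.6e-04). The exception was Arg1, the last enzyme of the same cycle, at 7.14 and 7.50 in treated Tnfrsf1β-/- cells and 1.39 and 1.30 in treated WT cells (difference 5.98, SE 0.23, limma adjusted p = 6.3e-08). Arg1 was also high in untreated cells, at 5.54 and 5.60 in Tnfrsf1β-/- and 6.75 and 6.91 in WT, so treated WT cells were the low group for this gene.

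Most of the tested liver-enriched transcription factors were lower too. Of 16 liver-enriched factors with a line in the file 10 were tested. Of these 7 were lower and 1, Cebpb, was higher (70% and 10%, against 36.3% and 14.7% of all genes). The median was -3.58. Hnf4a, a nuclear receptor at the centre of the hepatocyte program, was listed at 0 and 0 in treated Tnfrsf1β-/- cells and at 5.22 and 5.13 in treated WT cells (limma adjusted p = 3.4e-09). Cebpa, which holds hepatocytes out of division, was at 1.13 and 1.14 in treated Tnfrsf1β-/- cells and 5.29 and 5.54 in treated WT cells (difference -4.28, SE 0.39, limma adjusted p = 3.1e-05). Foxa2, a pioneer factor of endoderm, was at 2.28 and 1.64 in treated Tnfrsf1β-/- cells and 5.84 and 5.74 in treated WT cells (difference -3.83, SE 0.77, limma adjusted p = 0.0036). Cebpb, an inflammatory relative of Cebpa, was at 11.45 and 11.73 in treated Tnfrsf1β-/- cells and 10.40 and 11.22 in treated WT cells (difference 0.78, SE 0.27, limma adjusted p = 0.042). The difference was 0.92, 0.64, 0.37 and 1.19 when each of the 4 libraries was left out, in the order treated Tnfrsf1β-/- replicate 1 and 2, then treated WT replicate 1 and 2, an order kept for all such values. Its call was lost without treated Tnfrsf1β-/- replicate 1 (limma adjusted p = 0.065), without replicate 2 (0.19) and without treated WT replicate 1 (0.28). Gata4 and Gata6, factors of endoderm and mesoderm, did not pass (limma adjusted p = 0.67 and 0.26), but did as higher in the fit without the Tnfrsf1α-/- pair (0.015 and 0.0074), which gave 3 higher and 7 lower liver factors.

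Epithelial markers of progenitors and bile duct cells were lower too, with exceptions that stayed abundant. Of 20 markers with a line in the file, 13 were tested, with a median of -3.52. In treated Tnfrsf1β-/- cells 11 were lower and none higher (84.6% and 0%, against 36.3% and 14.7% of all genes). Krt18, a keratin of simple epithelia, was at 0 and 0.24 in treated Tnfrsf1β-/- cells and 9.64 and 9.84 in treated WT cells (difference -9.62, SE 0.18, limma adjusted p = 1.8e-09). Krt19, a bile duct and progenitor keratin, was listed at 0 and 0 in treated Tnfrsf1β-/- cells, against 4.78 and 4.84 in treated WT cells (limma adjusted p = 2.9e-08). Epcam, a surface marker by which hepatic progenitors are often sorted, was listed at 0 and 0 in treated Tnfrsf1β-/- cells, against 3.32 and 3.05 in treated WT cells (limma adjusted p = 6.8e-08). Lgr5, a Wnt-responsive stem cell receptor, was listed at 0 and 0 in treated Tnfrsf1β-/- cells, against 4.75 and 4.45 in treated WT cells (limma adjusted p = 1.4e-08). Cdh1, E-cadherin, was at 2.96 and 3.26 in treated Tnfrsf1β-/- cells and 10.71 and 9.98 in treated WT cells (difference -7.23, SE 0.51, limma adjusted p = 5.0e-06).

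Among the markers that remained, Krt7, a bile duct keratin, was at 13.60 and 13.81 in treated Tnfrsf1β-/- cells and 15.24 and 15.67 in treated WT cells (difference -1.75, SE 0.25, limma adjusted p = 4.8e-04), a call lost under quantile normalization (limma adjusted p = 0.78). Sox9, a factor of bile duct and progenitor cells, was at 6.30 and 5.69 in treated Tnfrsf1β-/- cells and 9.15 and 9.19 in treated WT cells (difference -3.17, SE 0.26, limma adjusted p = 1.5e-05). The laminin receptor subunit Itga6 was at 9.33 and 8.97 in treated Tnfrsf1β-/- cells and 11.03 and 10.74 in treated WT cells (difference -1.74, SE 0.28, limma adjusted p = 0.0011). Dlk1, Prom1, Onecut1 and the 3 claudins of the list were among those below the filter on low values. The keratin Krt8 was at 8.62 and 8.02 in treated Tnfrsf1β-/- cells and 9.96 and 10.05 in treated WT cells. It did not pass (limma adjusted p = 0.34), but did as lower in the fit without the Tnfrsf1α-/- pair (limma adjusted p = 1.1e-04). Of the markers in this list, treated Tnfrsf1β-/- libraries thus held Krt7, Sox9, Itga6 and Krt8 and, at a lower level, Cdh1, with Epcam, Krt19, Afp and Lgr5 at 0. The untreated WT libraries had those last 4 genes at 0 too, with Krt7 at 13.80 and 13.50, Sox9 at 5.21 and 5.78, Itga6 at 9.73 and 10.10 and Krt8 at 8.57 and 8.61.

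Few markers of endothelial cells, of macrophages and leukocytes and of erythroid cells passed the filter. Of 11 endothelial markers with a line in the file, 2 were tested, and Sox17, an endoderm and endothelial factor, was at 8.55 and 8.39 in treated Tnfrsf1β-/- cells and 4.39 and 5.46 in treated WT cells (difference 3.55, SE 0.32, limma adjusted p = 2.8e-05), while Cdh5, Kdr, Flt1 and Vwf were below the filter. The summed FPKM of the endothelial list was 334 to 375 in treated Tnfrsf1β-/- libraries and 20.1 to 43.2 in treated WT libraries, nearly all of it Sox17; without Sox17 the sums were 0.26 to 0.462 in treated Tnfrsf1β-/- and 0.13 to 0.185 in treated WT libraries. For macrophages and leukocytes 2 of 15 markers were tested and neither passed, though 1 did under median-ratio scaling, with sums of 29.0 to 31.3 in treated Tnfrsf1β-/- and 16.8 to 18.5 in treated WT libraries. For erythroid cells the sums were 9.29 to 11.2 in treated Tnfrsf1β-/- and 43.9 to 52.6 in treated WT libraries, and of 9 markers in the table Tfrc, the transferrin receptor of most dividing cells, was the 1 tested and was called lower (limma adjusted p = 0.037), a call lost with any 1 of the 4 libraries left out (limma adjusted p up to 0.16) and under median-ratio scaling (0.096) and quantile normalization (0.15). Without Tfrc the erythroid sums were 2.48 to 4.90 in treated Tnfrsf1β-/- and 3.41 to 3.52 in treated WT libraries. The part of such cells in the results was not tested.

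**Figure D2:**
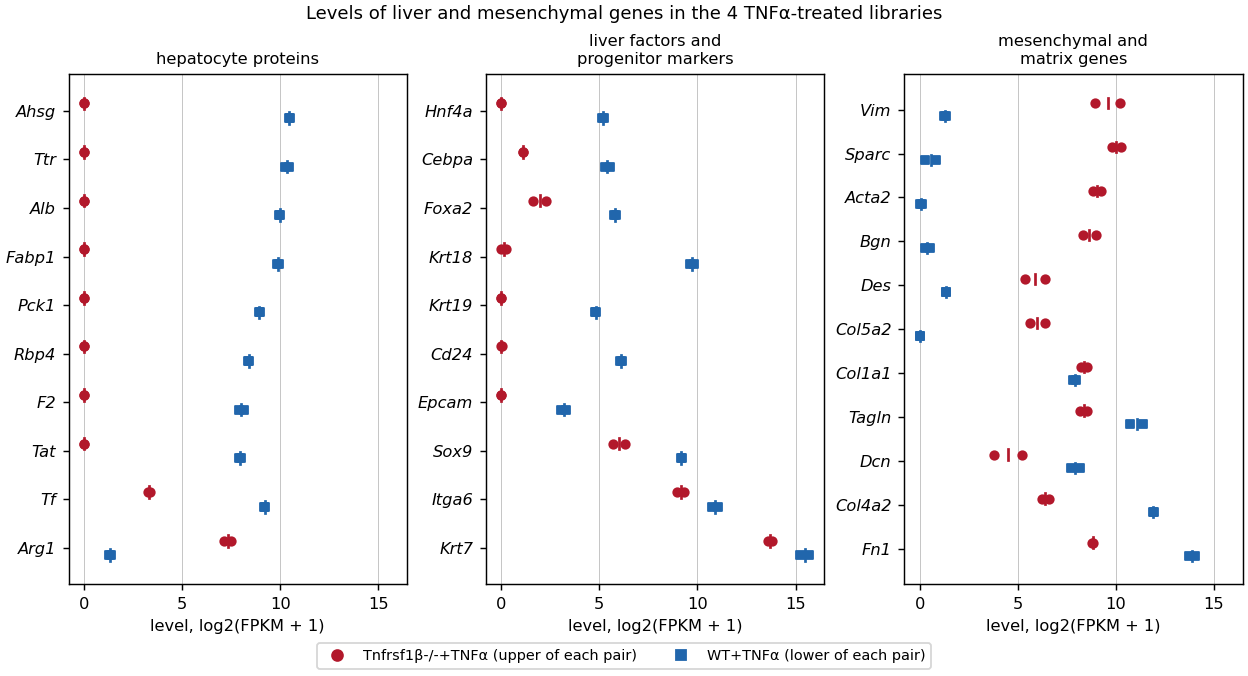
Levels in log2(FPKM + 1) of 10 hepatocyte genes, 10 liver factors and progenitor markers and 11 mesenchymal and matrix genes; each point is 1 of the 2 libraries of a group and the short bar their mean, with treated Tnfrsf1β-/- cells above treated WT cells in each row. Alb, Ahsg and Ttr are at 0 in both treated Tnfrsf1β-/- libraries, and Vim and Sparc lie at 8.93 to 10.24 there and at 0.28 to 1.34 in treated WT libraries. Col1a1 is close between the groups and did not pass, but did as higher under median-ratio scaling (difference 1.19, limma adjusted p = 0.012).

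Mesenchymal and stellate cell markers ran the other way for most members. Of 9 tested genes 6 were higher and 2 lower (66.7% and 22.2%, against 14.7% and 36.3% of all genes), with a median of 3.95. Median-ratio scaling gave 7 higher and 2 lower. Vim, the intermediate filament vimentin, was at 10.23 and 8.93 in treated Tnfrsf1β-/- cells and 1.22 and 1.34 in treated WT cells (difference 8.30, SE 0.36, limma adjusted p = 1.4e-07). Sparc, a matrix glycoprotein, was at 10.24 and 9.79 in treated Tnfrsf1β-/- cells and 0.28 and 0.85 in treated WT cells (difference 9.45, SE 0.60, limma adjusted p = 2.4e-06). Acta2, smooth muscle actin, was at 9.25 and 8.83 in treated Tnfrsf1β-/- cells and 0.023 and 0.13 in treated WT cells (difference 8.96, SE 2.02, limma adjusted p = 0.0062). Des, desmin, was at 6.40 and 5.35 in treated Tnfrsf1β-/- cells and 1.33 and 1.34 in treated WT cells (difference 4.54, SE 0.33, limma adjusted p = 6.3e-06). Against this, Tagln, an actin-binding protein of smooth muscle, was at 8.20 and 8.52 in treated Tnfrsf1β-/- cells and 10.73 and 11.37 in treated WT cells (difference -2.69, SE 0.26, limma adjusted p = 4.1e-05). The proteoglycan Dcn, decorin, was at 5.23 and 3.80 in treated Tnfrsf1β-/- cells and 8.16 and 7.72 in treated WT cells (difference -3.43, SE 0.48, limma adjusted p = 4.6e-04). Vim was at 9.93 and 9.95 in untreated Tnfrsf1β-/- cells, 10.57 and 10.73 in untreated WT cells and 10.63 and 10.92 in libraries labelled Tnfrsf1α-/- with TNFα, so the treated WT pair was the low one of the study. Pdgfra, Pdgfrb, Thy1, Lrat and Lum were below the filter. The summed FPKM of the list overlapped between the groups, at 2552 to 3818 in treated Tnfrsf1β-/- libraries and 2236 to 3093 in treated WT libraries.

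Collagens and other matrix proteins split evenly. Of 23 tested 8 were higher and 8 lower (34.8% and 34.8%, against 14.7% and 36.3% of all genes), and 9 and 7 under median-ratio scaling, with a median of 0.28. Col5a2, a chain of a fibrillar collagen, was higher, at 6.39 and 5.62 in treated Tnfrsf1β-/- cells and 0.0072 and 0.017 in treated WT cells (difference 5.99, SE 0.41, limma adjusted p = 3.9e-06). The small proteoglycan Bgn, biglycan, was at 8.98 and 8.32 in treated Tnfrsf1β-/- cells and 0.26 and 0.51 in treated WT cells (difference 8.27, SE 0.83, limma adjusted p = 5.9e-05). The chains of basement membrane collagen were lower, with Col4a2 at 6.58 and 6.24 in treated Tnfrsf1β-/- cells and 11.87 and 11.94 in treated WT cells (difference -5.50, SE 0.54, limma adjusted p = 5.1e-05). Col4a1 was at 7.21 and 6.81 in treated Tnfrsf1β-/- cells and 10.80 and 10.67 in treated WT cells (difference -3.72, SE 0.40, limma adjusted p = 9.4e-05). Fn1, fibronectin, was at 8.84 and 8.80 in treated Tnfrsf1β-/- cells and 14.05 and 13.75 in treated WT cells (difference -5.08, SE 0.24, limma adjusted p = 2.8e-07). Col12a1, a collagen on the surface of fibrils, was at 1.58 and 1.01 in treated Tnfrsf1β-/- cells and 9.34 and 9.09 in treated WT cells (difference -7.92, SE 0.42, limma adjusted p = 6.1e-07). With each of the 4 libraries left out in turn, the count of higher matrix genes was 3, 5, 3 and 3, and that of lower ones 7, 6, 6 and 6.

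Factors and adhesion molecules of the epithelial to mesenchymal transition did not move as a block. Of 11 tested transition genes 1 was higher and 4 lower (9.09% and 36.4%, against 14.7% and 36.3% of all genes), with a median of 0. The counts were 2 and 4 under either scaling, and 5 higher and 5 lower in the fit without the Tnfrsf1α-/- pair. Zeb1, a repressor of E-cadherin, was at 6.87 and 5.91 in treated Tnfrsf1β-/- cells and 9.17 and 8.55 in treated WT cells (difference -2.46, SE 0.34, limma adjusted p = 4.3e-04), the same direction as Cdh1. Cdh2, N-cadherin, was also lower, at 8.23 and 8.28 in treated Tnfrsf1β-/- cells and 10.82 and 10.41 in treated WT cells (difference -2.36, SE 0.18, limma adjusted p = 9.5e-06). Snai1, another repressor of E-cadherin, was at 2.85 and 2.74 in treated Tnfrsf1β-/- cells and 0.32 and 0.23 in treated WT cells (difference 2.52, SE 0.62, limma adjusted p = 0.0097), a call lost without treated WT replicate 1 (limma adjusted p = 0.057) or replicate 2 (0.061). Twist1, Twist2, Snai2 and Zeb2, further factors of this transition, were listed at 0 in both treated WT libraries and at 0.28 to 2.91 in treated Tnfrsf1β-/- libraries. They did not pass (limma adjusted p = 0.76, 0.12, 0.14 and 0.067), but all 4 did as higher in the fit without the Tnfrsf1α-/- pair (limma adjusted p = 0.013, 6.4e-07, 4.1e-04 and 0.0045), and Zeb2 also under both scalings. Of 15 tested integrins and cadherins 4 were higher and 5 lower (26.7% and 33.3%, against 14.7% and 36.3% of all genes), with 5 and 5 under median-ratio scaling. Itgb5, a vitronectin receptor subunit, was at 4.90 and 3.74 in treated Tnfrsf1β-/- cells and 11.21 and 11.36 in treated WT cells (difference -6.96, SE 0.32, limma adjusted p = 2.6e-07). Itga3, a laminin receptor subunit, was at 5.02 and 4.40 in treated Tnfrsf1β-/- cells and 1.26 and 1.06 in treated WT cells (difference 3.55, SE 0.32, limma adjusted p = 2.7e-05). Leaving out each library in turn gave 1, 3, 1 and 2 higher integrins and cadherins and 5, 5, 5 and 5 lower ones.

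Among genes measured at a level of at least 1 in all 4 libraries, the lowest difference was that of Asph, an aspartate hydroxylase of the endoplasmic reticulum, at 1.45 and 1.11 in treated Tnfrsf1β-/- cells and 13.79 and 13.32 in treated WT cells (difference -12.28, SE 0.21, limma adjusted p = 1.7e-09). The aldo-keto reductases Akr1c1 and Akr1b10, which reduce aldehydes and ketones, were also among the 12 lowest. Akr1c1 was at 3.24 and 3.26 in treated Tnfrsf1β-/- cells and 14.43 and 14.81 in treated WT cells (difference -11.37, SE 0.33, limma adjusted p = 1.2e-08). Akr1b10 was at 6.38 and 6.31 in treated Tnfrsf1β-/- cells and 16.62 and 16.78 in treated WT cells (difference -10.35, SE 0.22, limma adjusted p = 2.6e-09). The Akr1c genes are close paralogues, and how reads shared by them were counted is not given. Atp1b1, the beta subunit of the sodium pump, was at 3.12 and 1.88 in treated Tnfrsf1β-/- cells and 13.14 and 12.82 in treated WT cells (difference -10.48, SE 0.37, limma adjusted p = 3.8e-08). Pappa, a protease that cleaves IGF binding proteins, was at 1.83 and 2.08 in treated Tnfrsf1β-/- cells and 12.19 and 11.55 in treated WT cells (difference -9.92, SE 0.45, limma adjusted p = 2.1e-07). The others of the 12 lowest were Nars2, Srgn, Nup210, Atp13a3, Bard1, Fancg and Apex2, all with differences of -8.50 to -11.30. In 10 of these 12 genes both libraries labelled Tnfrsf1α-/- with TNFα lay nearer to treated WT than to treated Tnfrsf1β-/- cells, while among the 12 highest both lay nearer to treated Tnfrsf1β-/- cells in 7.

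At the other end stood S100a6, a calcium-binding protein of proliferating and mesenchymal cells, at 15.09 and 15.42 in treated Tnfrsf1β-/- cells and 4.55 and 4.80 in treated WT cells (difference 10.58, SE 0.41, limma adjusted p = 6.8e-08). It was the gene with the highest level in both treated Tnfrsf1β-/- libraries. Serpinh1, the collagen chaperone HSP47, was at 10.04 and 9.55 in treated Tnfrsf1β-/- cells and 1.36 and 1.40 in treated WT cells (difference 8.41, SE 0.37, limma adjusted p = 1.6e-07). Lgals1, galectin-1, was at 13.76 and 14.08 in treated Tnfrsf1β-/- cells and 7.77 and 8.08 in treated WT cells (difference 6.0, SE 0.36, limma adjusted p = 1.5e-06). Ptrf, the caveola coat protein cavin-1, was at 8.20 and 8.07 in treated Tnfrsf1β-/- cells and 1.11 and 1.18 in treated WT cells (difference 6.99, SE 0.27, limma adjusted p = 6.6e-08). Msln, mesothelin, a surface protein of mesothelial cells, was at 9.26 and 9.35 in treated Tnfrsf1β-/- cells and 2.59 and 2.62 in treated WT cells (difference 6.70, SE 0.89, limma adjusted p = 3.5e-04). Htra1, Fam25a, Smim1, Upk3b, Vim and Arg1 were also among the 12 highest. The call of Upk3b, a uroplakin also found in mesothelium, at 9.22 and 9.59 in treated Tnfrsf1β-/- cells and 2.39 and 2.43 in treated WT cells (difference 6.99, SE 2.30, limma adjusted p = 0.033), was lost without any 1 of the 4 libraries (limma adjusted p = 0.096, 0.13, 0.13 and 0.13).

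Some genes were abundant in one group and listed at 0 in both libraries of the other. Ceacam6, a carcinoembryonic antigen family member, was listed at 0 and 0 in treated Tnfrsf1β-/- cells and at 14.81 and 14.64 in treated WT cells (limma adjusted p = 1.2e-09). Alpp, whose symbol names placental alkaline phosphatase, was listed at 0 and 0 in treated Tnfrsf1β-/- cells, against 12.52 and 12.37 in treated WT cells (limma adjusted p = 1.6e-09). Fscn1, the actin-bundling protein fascin, was listed at 0 and 0 in treated Tnfrsf1β-/- cells, against 11.85 and 12.39 in treated WT cells (limma adjusted p = 1.7e-09). Nrcam, Sgcd, Cdcp1, Sfrp1, Apba2 and Galnt14 showed the same pattern, with levels of 9.67 to 13.26 in treated WT cells. Of the 12 called genes at 0 in both treated Tnfrsf1β-/- libraries with the highest treated WT levels, both libraries labelled Tnfrsf1α-/- with TNFα lay nearer to treated WT in 5. In the other direction Nppb, the natriuretic peptide BNP, was listed at 9.03 and 9.87 in treated Tnfrsf1β-/- cells, against 0 and 0 in treated WT cells (limma adjusted p = 6.8e-08). Dmd, dystrophin, was listed at 8.95 and 8.40 in treated Tnfrsf1β-/- cells, against 0 and 0 in treated WT cells (limma adjusted p = 1.6e-06). Lmo1, a LIM-domain co-regulator, was listed at 7.34 and 7.43 in treated Tnfrsf1β-/- cells, against 0 and 0 in treated WT cells (limma adjusted p = 1.7e-08). Foxs1, Sri, Tmed3, Rgs10 and Btg3 were likewise at 0 in both treated WT libraries, with levels of 5.72 to 7.33 in treated Tnfrsf1β-/- cells.

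**Figure D3:**
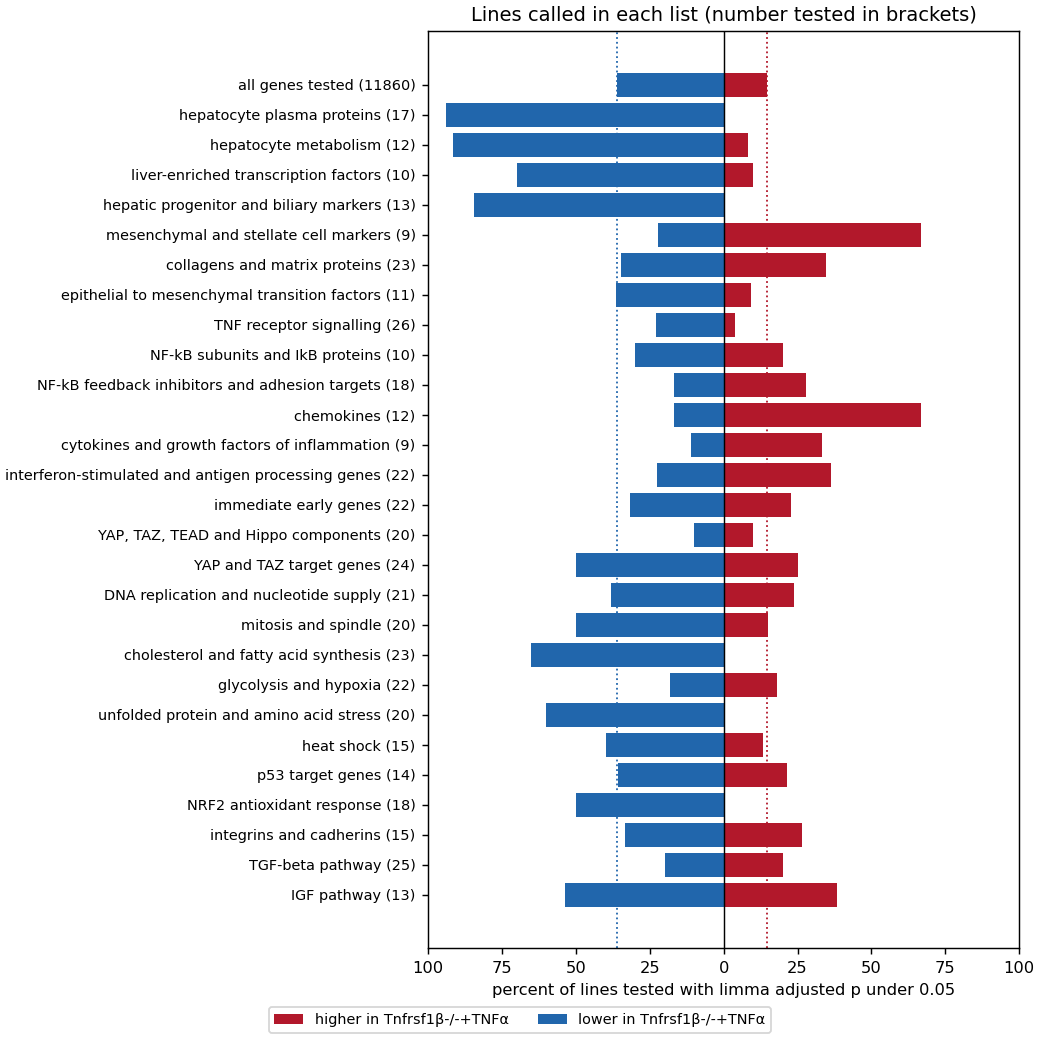
Percent of the tested lines of each list that were called higher in treated Tnfrsf1β-/- cells (right, red) or lower (left, blue), with the number tested in brackets and lists of fewer than 5 tested lines left out. The dotted lines are the 14.7% and 36.3% over all 11860 genes; both hepatocyte lists and the progenitor list reach furthest to the left, and the chemokines and mesenchymal markers furthest to the right.

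Components of TNF receptor signalling lay near the bulk of genes. Of 26 tested 1 was higher and 6 lower (3.85% and 23.1%, against 14.7% and 36.3% of all genes), with a median of -0.48, close to the -0.41 of all genes. Under median-ratio scaling 5 were higher and 2 lower, and there were 2 higher and 10 lower in the fit without the Tnfrsf1α-/- pair. The 2 that kept their direction and call under every alternative were Fadd and Traf5. Fadd, the adaptor that links death receptors to caspase-8, was at 2.53 and 2.48 in treated Tnfrsf1β-/- cells and 4.07 and 4.09 in treated WT cells (difference -1.58, SE 0.22, limma adjusted p = 4.6e-04). Traf5, an adaptor of TNF receptors, was at 3.11 and 2.37 in treated Tnfrsf1β-/- cells and 1.24 and 1.27 in treated WT cells (difference 1.48, SE 0.28, limma adjusted p = 0.0027). Traf2, through which TNFR2 signals, was at 4.66 and 5.01 in treated Tnfrsf1β-/- cells and 5.43 and 5.67 in treated WT cells (difference -0.71, SE 0.19, limma adjusted p = 0.012), and its difference under median-ratio scaling was -0.014 (limma adjusted p = 0.97); without treated Tnfrsf1β-/- replicate 1 or treated WT replicate 2 it did not pass (limma adjusted p = 0.063 and 0.07). Cflar, the inhibitor of caspase-8 known as c-FLIP, was at 9.30 and 9.49 in treated Tnfrsf1β-/- cells and 10.85 and 10.83 in treated WT cells (difference -1.45, SE 0.18, limma adjusted p = 2.7e-04), a call lost under quantile normalization (limma adjusted p = 0.084). Beside Tnfrsf1a the remaining calls were Sharpin and Rnf31, components of the LUBAC ubiquitin ligase. Sharpin differed by -0.73 and Rnf31 by -0.81, and both calls were lost under either scaling (limma adjusted p = 0.93 and 0.46 under median-ratio scaling, 0.81 and 0.69 under quantile normalization) and without any 1 of the 4 libraries compared (limma adjusted p up to 0.07 and 0.098). The other 19 genes did not pass. With each library left out in turn, 1, 2, 1 and 1 were higher and 4, 4, 4 and 3 lower.

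The subunits and inhibitors of NF-kB were mixed. Of 10 tested 2 were higher and 3 lower (20% and 30%, against 14.7% and 36.3% of all genes), and 4 and 1 under either scaling. Nfkb2, which gives the p52 subunit of the non-canonical pathway, was at 3.01 and 3.19 in treated Tnfrsf1β-/- cells and 5.35 and 5.35 in treated WT cells (difference -2.25, SE 0.31, limma adjusted p = 4.0e-04). Its partner Relb was at 2.49 and 3.05 in treated Tnfrsf1β-/- cells and 1.38 and 1.30 in treated WT cells (difference 1.43, SE 0.25, limma adjusted p = 0.0016), so these members of 1 dimer differed in opposite directions. Rela, the main subunit of the canonical pathway, was at 4.88 and 4.71 in treated Tnfrsf1β-/- cells and 5.71 and 5.79 in treated WT cells (difference -0.96, SE 0.23, limma adjusted p = 0.0092), but the difference under median-ratio scaling was -0.26 (limma adjusted p = 0.32), and the call was lost without treated Tnfrsf1β-/- replicate 2 or treated WT replicate 2 (limma adjusted p = 0.053 and 0.052). Nfkbia, the inhibitor IkB-alpha and an early target of NF-kB, was at 4.94 and 5.26 in treated Tnfrsf1β-/- cells and 5.76 and 5.86 in treated WT cells (difference -0.71, SE 0.50, limma adjusted p = 0.27). It was called lower in the fit without the Tnfrsf1α-/- pair (limma adjusted p = 0.0065), while its difference under median-ratio scaling was -0.007. Without each library in turn the counts were 1, 1, 1 and 1 higher and 2, 1, 2 and 1 lower.

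Feedback inhibitors and other targets of NF-kB showed 5 higher and 3 lower of 18 tested (27.8% and 16.7%, against 14.7% and 36.3% of all genes), with a median of 0.38, with 9 higher and 1 lower under either scaling, and 7 higher and 6 lower in the fit without the Tnfrsf1α-/- pair. Zc3h12a, the ribonuclease regnase-1 that degrades cytokine mRNAs, was at 3.98 and 4.47 in treated Tnfrsf1β-/- cells and 0.93 and 0.92 in treated WT cells (difference 3.30, SE 0.23, limma adjusted p = 5.1e-06). Tnfaip2, first found as a TNF-induced gene, was at 5.77 and 5.26 in treated Tnfrsf1β-/- cells and 2.41 and 2.36 in treated WT cells (difference 3.13, SE 0.29, limma adjusted p = 3.4e-05). Ptgs2, the inducible prostaglandin synthase COX-2, was at 3.16 and 2.55 in treated Tnfrsf1β-/- cells and 0 and 0.018 in treated WT cells (difference 2.85, SE 0.38, limma adjusted p = 3.7e-04). Lower was Bcl2l1, the survival factor Bcl-xL, at 11.43 and 11.57 in treated Tnfrsf1β-/- cells and 12.92 and 13.32 in treated WT cells (difference -1.62, SE 0.21, limma adjusted p = 3.5e-04). Untreated cells held Zc3h12a at 6.01 and 6.10 in Tnfrsf1β-/- and 4.40 and 3.92 in WT, and Ptgs2 at 6.39 and 6.40 in Tnfrsf1β-/- and 3.52 and 2.51 in WT, so for both genes the treated WT libraries were the low ones. The calls of Icam1, an adhesion molecule for leukocytes, and Irf1, a transcription factor induced by interferon and TNF, both lower, and of Tnfaip3, the ubiquitin editor A20, which was higher, did not hold with every library left out (limma adjusted p up to 0.13, 0.15 and 0.19). The Irf1 difference was -1.20, and -0.73 without treated Tnfrsf1β-/- replicate 2; those of Icam1 and Irf1 did not pass under either scaling. The lower count was 2, 1, 1 and 1 with each library left out in turn, and the higher one 4, 4, 4 and 4.

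Chemokines, which attract leukocytes and are classic products of TNF signalling, were mostly higher in treated Tnfrsf1β-/- cells. Of 19 with a line in the file, 12 were tested, and 8 were higher and 2 lower (66.7% and 16.7%, against 14.7% and 36.3% of all genes), with a median of 2.03; both scalings gave the same counts. The proximal promoters of 2 of them, which differed in opposite directions, are shown because both hold a form of the NF-kB motif, GGG, any 2 bases and TTTCC, printed in capitals on either strand. They are the 250 bases before the gene's start in the RefSeq annotation of GRCr8, 5′ to 3′, for Cxcl1 at chr14:17479322-17479571 on the minus strand and for Ccl20 at chr9:91836909-91837158 on the plus strand.
Cxcl1: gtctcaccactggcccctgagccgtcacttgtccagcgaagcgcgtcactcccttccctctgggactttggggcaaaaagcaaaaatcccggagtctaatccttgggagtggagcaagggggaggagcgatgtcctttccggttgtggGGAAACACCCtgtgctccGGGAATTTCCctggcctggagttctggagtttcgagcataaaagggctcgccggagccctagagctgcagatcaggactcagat
Ccl20: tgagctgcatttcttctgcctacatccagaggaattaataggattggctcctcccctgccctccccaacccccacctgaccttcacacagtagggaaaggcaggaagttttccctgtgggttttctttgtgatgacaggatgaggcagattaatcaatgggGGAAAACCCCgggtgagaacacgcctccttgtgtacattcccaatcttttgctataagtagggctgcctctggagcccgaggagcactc
The Cxcl1 promoter holds 2 matches and the Ccl20 promoter 1. In windows of 250 bases before and 50 after the start, 4 of 13 chemokine promoters held a match, the others being Cxcl2, which did not pass, and Cxcl6, which was not tested. It was also found in 2 of 18 promoters of the feedback and adhesion list, Nfkbia and Tnfaip3, and in 1.53% of 33469 rat promoters.

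Cxcl1, a neutrophil attractant, was at 7.70 and 8.27 in treated Tnfrsf1β-/- cells and 0.98 and 1.15 in treated WT cells (difference 6.92, SE 0.21, limma adjusted p = 1.6e-08). Ccl20, which attracts cells bearing CCR6, was listed at 0 and 0 in treated Tnfrsf1β-/- cells, against 6.99 and 7.12 in treated WT cells (limma adjusted p = 1.0e-04). Untreated cells were at 9.24 and 9.31 in Tnfrsf1β-/- and 8.35 and 8.18 in WT for Cxcl1, and at 3.72 and 3.76 in Tnfrsf1β-/- and 0 and 3.08 in WT for Ccl20. Ccl2, the monocyte attractant MCP-1, was at 9.88 and 9.30 in treated Tnfrsf1β-/- cells and 0 and 0.14 in treated WT cells (difference 9.52, SE 1.17, limma adjusted p = 2.3e-04). The neighbouring family member Ccl7 was listed at 7.27 and 7.99 in treated Tnfrsf1β-/- cells, against 0 and 0 in treated WT cells (limma adjusted p = 0.006). Cxcl16, a membrane-bound chemokine, was at 6.76 and 6.33 in treated Tnfrsf1β-/- cells and 1.51 and 1.44 in treated WT cells (difference 5.07, SE 0.88, limma adjusted p = 0.0016). Cxcl10, a T cell attractant induced by interferon, was at 6.73 and 5.68 in treated Tnfrsf1β-/- cells and 4.44 and 4.63 in treated WT cells (difference 1.67, SE 0.30, limma adjusted p = 0.0018). Cxcl12, the stromal chemokine SDF-1, was listed at 2.58 and 3.44 in treated Tnfrsf1β-/- cells, against 0 and 0 in treated WT cells (limma adjusted p = 0.0047). Ccl2 was at 9.69 and 9.57 in untreated Tnfrsf1β-/- cells and 10.36 and 9.95 in untreated WT cells, so its near absence was a feature of the treated WT pair. Cx3cl1, a tethered chemokine of epithelium and endothelium, was the other lower member, and its call was lost without any 1 of the 4 libraries (limma adjusted p = 0.062, 0.093, 0.082 and 0.1).

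Cytokines gave 3 higher and 1 lower of 9 tested (33.3% and 11.1%, against 14.7% and 36.3% of all genes), and 5 higher and 1 lower in the fit without the Tnfrsf1α-/- pair. Csf1, the growth factor of macrophages, was at 5.48 and 5.38 in treated Tnfrsf1β-/- cells and 1.46 and 1.67 in treated WT cells (difference 3.87, SE 0.47, limma adjusted p = 2.2e-04). Tnfsf9, the ligand of 4-1BB, was listed at 2.42 and 2.46 in treated Tnfrsf1β-/- cells, against 0 and 0 in treated WT cells (limma adjusted p = 0.0012). Il33, an alarmin stored in the nucleus, was lower, at 1.32 and 2.05 in treated Tnfrsf1β-/- cells and 3.62 and 3.30 in treated WT cells (difference -1.77, SE 0.25, limma adjusted p = 5.0e-04). Tnf, Il1a and Il1b were below the filter.

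Interferon-stimulated and antigen processing genes were higher in part. Of 22 tested 8 were higher and 5 lower (36.4% and 22.7%, against 14.7% and 36.3% of all genes), with a median of 0.73; median-ratio scaling gave 9 and 2, and leaving out each library in turn 8, 8, 8 and 8 higher and 3, 2, 3 and 3 lower. Irf7, the amplifier of the interferon response, was at 8.95 and 8.85 in treated Tnfrsf1β-/- cells and 3.48 and 3.59 in treated WT cells (difference 5.36, SE 0.41, limma adjusted p = 8.7e-06). Usp18, which removes the ubiquitin-like protein ISG15, was at 6.32 and 6.62 in treated Tnfrsf1β-/- cells and 0.36 and 0.47 in treated WT cells (difference 6.05, SE 0.70, limma adjusted p = 1.5e-04). Isg15 itself was at 8.18 and 8.44 in treated Tnfrsf1β-/- cells and 4.15 and 4.48 in treated WT cells (difference 3.99, SE 0.27, limma adjusted p = 4.0e-06). Oas1a, an RNA sensor that activates RNase L, was listed at 4.97 and 5.25 in treated Tnfrsf1β-/- cells, against 0 and 0 in treated WT cells (limma adjusted p = 4.2e-05). B2m, the light chain of MHC class I, went the other way, at 10.61 and 10.05 in treated Tnfrsf1β-/- cells and 15.54 and 15.85 in treated WT cells (difference -5.36, SE 0.24, limma adjusted p = 2.0e-07). Libraries labelled Tnfrsf1α-/- with TNFα held B2m at 15.32 and 15.67, near treated WT. Tap2, a peptide transporter for MHC class I, was higher, at 12.06 and 12.16 in treated Tnfrsf1β-/- cells and 10.82 and 10.71 in treated WT cells (difference 1.34, SE 0.15, limma adjusted p = 1.3e-04).

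**Figure D4:**
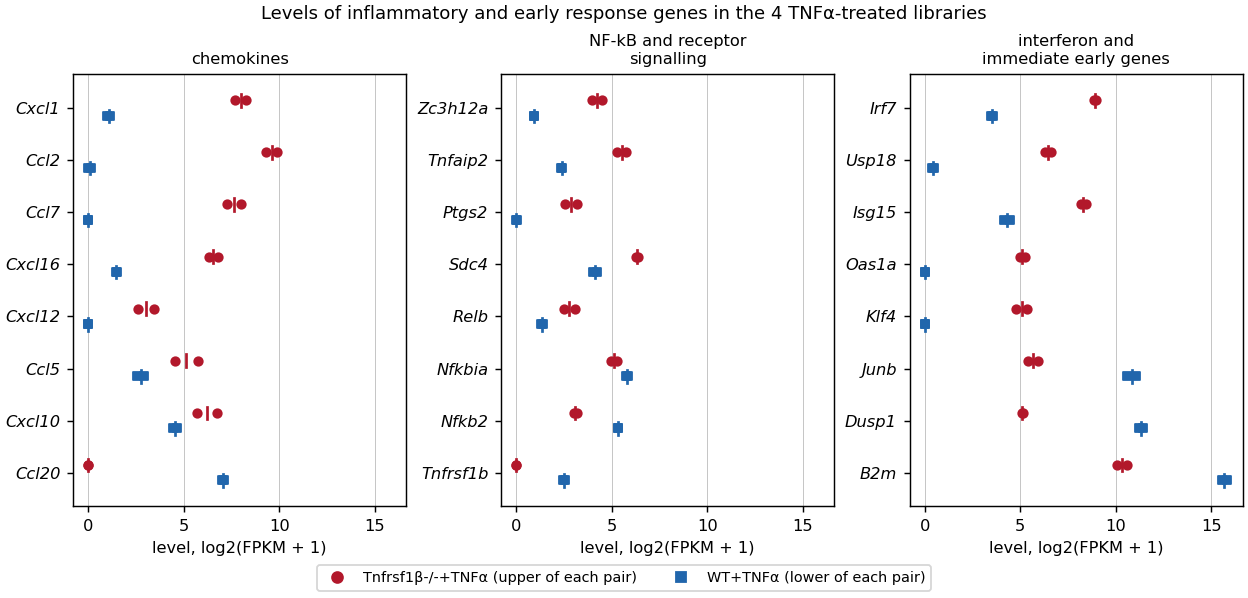
Levels in log2(FPKM + 1) of 8 chemokines, 8 genes of NF-kB and receptor signalling and 8 interferon and immediate early genes; each point is 1 of the 2 libraries of a group and the short bar their mean, with treated Tnfrsf1β-/- cells above treated WT cells in each row. Cxcl1, Ccl2 and Ccl7 lie at 7.27 to 9.88 in treated Tnfrsf1β-/- libraries and at 0 to 1.15 in treated WT libraries, while Ccl20, Junb, Dusp1 and B2m are lower in treated Tnfrsf1β-/- libraries.

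Immediate early genes, which respond to stimulation without new protein synthesis, split by member. Of 22 tested 5 were higher and 7 lower (22.7% and 31.8%, against 14.7% and 36.3% of all genes), with a median of 0.13. There were 9 and 7 under median-ratio scaling, and 9 higher and 9 lower in the fit without the Tnfrsf1α-/- pair. Dusp1, a phosphatase that switches off MAP kinases, was at 5.14 and 5.08 in treated Tnfrsf1β-/- cells and 11.21 and 11.45 in treated WT cells (difference -6.22, SE 0.28, limma adjusted p = 1.9e-07). Junb, an AP-1 subunit, was at 5.42 and 5.93 in treated Tnfrsf1β-/- cells and 10.60 and 11.08 in treated WT cells (difference -5.17, SE 0.23, limma adjusted p = 1.9e-07). Btg2, an inhibitor of proliferation, was at 2.53 and 2.33 in treated Tnfrsf1β-/- cells and 5.37 and 5.55 in treated WT cells (difference -3.03, SE 0.23, limma adjusted p = 1.0e-05). Nr4a1, an orphan nuclear receptor, was at 0.73 and 0.71 in treated Tnfrsf1β-/- cells and 3.23 and 3.39 in treated WT cells (difference -2.59, SE 0.33, limma adjusted p = 3.0e-04). Klf2, a Krüppel-like factor, was higher, at 6.48 and 6.70 in treated Tnfrsf1β-/- cells and 0 and 0.10 in treated WT cells (difference 6.54, SE 0.86, limma adjusted p = 3.3e-04). Klf4, a related factor, was also higher, at 5.37 and 4.80 in treated Tnfrsf1β-/- cells and 0.014 and 0 in treated WT cells (difference 5.08, SE 0.54, limma adjusted p = 8.6e-05). Egr1, a zinc finger factor, was at 8.26 and 8.13 in treated Tnfrsf1β-/- cells and 6.32 and 6.69 in treated WT cells (difference 1.69, SE 0.25, limma adjusted p = 6.2e-04). Ier3, a survival gene induced by NF-kB, was at 8.55 and 8.97 in treated Tnfrsf1β-/- cells and 5.39 and 5.42 in treated WT cells (difference 3.35, SE 0.38, limma adjusted p = 1.3e-04). Fos, the partner of Jun in AP-1, was low in both groups, at 0.51 and 0 in treated Tnfrsf1β-/- cells and 1.22 and 1.37 in treated WT cells (difference -1.04, SE 0.23, limma adjusted p = 0.0059).

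Hnrnpk, the gene of the RNA-binding protein named in the title of the series, was at 6.80 and 6.34 in treated Tnfrsf1β-/- cells and 11.41 and 10.33 in treated WT cells (difference -4.30, SE 0.62, limma adjusted p = 5.7e-04). Both treated Tnfrsf1β-/- libraries lay below both treated WT libraries, and the call held under all 14 alternatives. Untreated cells were at 6.72 and 6.77 in Tnfrsf1β-/- and 7.24 and 6.55 in WT, and libraries labelled Tnfrsf1α-/- with TNFα at 12.70 and 10.62, so the high libraries were those of treated WT and of the Tnfrsf1α-/- label with TNFα. Of the 4 tested genes of the hnRNPK and poly(C)-binding protein family 2 were lower and 1 was higher. The shares over all genes were 36.3% and 14.7%. Pcbp2 was at 6.68 and 5.99 in treated Tnfrsf1β-/- cells and 8.05 and 7.87 in treated WT cells (difference -1.62, SE 0.30, limma adjusted p = 0.0022). Pcbp3 was higher, at 3.29 and 3.44 in treated Tnfrsf1β-/- cells and 0.60 and 0.52 in treated WT cells (difference 2.81, SE 0.27, limma adjusted p = 4.3e-05). Pcbp4 did not pass (limma adjusted p = 0.081), but did as higher in the fit without the Tnfrsf1α-/- pair (limma adjusted p = 0.023). It was also called higher under median-ratio scaling and quantile normalization (limma adjusted p = 0.013 and 0.016).

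Yap1 itself was at 4.38 and 3.58 in treated Tnfrsf1β-/- cells and 4.53 and 4.42 in treated WT cells (difference -0.49, SE 0.65, limma adjusted p = 0.56). Wwtr1, which encodes TAZ, was at 4.33 and 3.90 in treated Tnfrsf1β-/- cells and 3.65 and 3.55 in treated WT cells (difference 0.52, SE 0.23, limma adjusted p = 0.092), and passed under median-ratio scaling with a difference of 1.19 (limma adjusted p = 4.1e-04). Of 20 tested components of the YAP, TAZ, TEAD and Hippo system 2 were higher and 2 lower (10% and 10%, against 14.7% and 36.3% of all genes), with a median of 0.14. There were 8 and 2 under either scaling, and 5 higher and 4 lower in the fit without the Tnfrsf1α-/- pair. Amotl1, a YAP-binding scaffold of cell junctions, was at 2.39 and 1.55 in treated Tnfrsf1β-/- cells and 0 and 0.023 in treated WT cells (difference 1.96, SE 0.44, limma adjusted p = 0.006). Stk4, the Hippo kinase MST1, was at 1.5 and 1.27 in treated Tnfrsf1β-/- cells and 2.70 and 2.44 in treated WT cells (difference -1.19, SE 0.24, limma adjusted p = 0.0034). The calls of Tead3 and Wwc1 were lost with any 1 of the 4 libraries left out (limma adjusted p up to 0.12 and 0.12). Tead3, a DNA-binding partner of YAP, was at 3.79 and 3.68 in treated Tnfrsf1β-/- cells and 3.06 and 3.06 in treated WT cells (difference 0.67, SE 0.23, limma adjusted p = 0.036). Wwc1, the Hippo activator KIBRA, was at 0.65 and 0.38 in treated Tnfrsf1β-/- cells and 3.11 and 2.98 in treated WT cells (limma adjusted p = 0.025). Leaving out each library in turn gave 1, 1, 1 and 1 higher and 2, 1, 1 and 2 lower. Transcript levels do not show the phosphorylation or location of YAP.

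Genes known as targets of YAP and TAZ differed in both directions. Of 24 tested 12 were lower and 6 higher (50% and 25%, against 36.3% and 14.7% of all genes), with a median of -2.04. The number lower was also 12 under both scalings and with each library left out, while the number higher was 10 under median-ratio scaling and 2, 4, 2 and 2 with each library left out in turn. The promoter of Ctgf (RefSeq symbol Ccn2), a secreted matrix regulator and common YAP readout, is shown because it holds the TEAD motif GGAATG more than once. It spans chr1:22624615-22624864, minus strand, the 250 bases before the gene's start in RefSeq GRCr8, 5′ to 3′ with the motif on either strand in capitals.
Ctgf: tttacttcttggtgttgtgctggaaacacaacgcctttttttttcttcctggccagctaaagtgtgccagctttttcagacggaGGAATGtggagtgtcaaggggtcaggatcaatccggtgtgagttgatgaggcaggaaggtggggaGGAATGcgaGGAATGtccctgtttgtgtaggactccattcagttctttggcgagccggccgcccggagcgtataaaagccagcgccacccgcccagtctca
It holds 3 matches, and the motif was found in 5 of 16 target promoters with a RefSeq entry, in windows of 250 bases before and 50 after the start, against 14.2% of 33469 promoters. The others were Amotl2, which was lower, Ptpn14, which was higher (limma adjusted p = 0.011, and 0.054, 0.048, 0.067 and 0.066 with each library left out), and Ajuba and Cyr61, which did not pass.

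Ctgf was at 7.67 and 6.96 in treated Tnfrsf1β-/- cells and 10.71 and 11.13 in treated WT cells (difference -3.61, SE 0.27, limma adjusted p = 8.2e-06). Ankrd1, a nuclear cofactor and another common readout, was at 5.81 and 6.10 in treated Tnfrsf1β-/- cells and 11.04 and 11.04 in treated WT cells (difference -5.08, SE 0.43, limma adjusted p = 1.8e-05). Axl, a receptor tyrosine kinase, was at 6.71 and 6.41 in treated Tnfrsf1β-/- cells and 12.78 and 12.85 in treated WT cells (difference -6.25, SE 0.26, limma adjusted p = 1.3e-07). Amotl2, a feedback inhibitor of YAP, was at 5.43 and 5.13 in treated Tnfrsf1β-/- cells and 10.67 and 10.68 in treated WT cells (difference -5.39, SE 0.23, limma adjusted p = 1.2e-07). Arhgef17, a nucleotide exchange factor of small GTPases, was at 2.93 and 2.57 in treated Tnfrsf1β-/- cells and 9.77 and 9.72 in treated WT cells (difference -7.00, SE 0.55, limma adjusted p = 1.1e-05). Ccnd1, cyclin D1, was at 10.65 and 10.75 in treated Tnfrsf1β-/- cells and 13.23 and 13.10 in treated WT cells (difference -2.47, SE 0.16, limma adjusted p = 2.7e-06). Myof, a membrane repair protein, was higher, at 5.12 and 4.65 in treated Tnfrsf1β-/- cells and 0.27 and 0.22 in treated WT cells (difference 4.64, SE 0.50, limma adjusted p = 1.0e-04). Fjx1, a secreted growth regulator, was also higher, at 2.87 and 2.55 in treated Tnfrsf1β-/- cells and 1.30 and 1.29 in treated WT cells (difference 1.42, SE 0.24, limma adjusted p = 0.0013). Cyr61, the closest relative of Ctgf in the list, was listed at 0 and 0 in treated Tnfrsf1β-/- cells and at 3.21 and 3.46 in treated WT cells, and did not pass (limma adjusted p = 0.22). Untreated WT libraries, which share the estimate of the spread, lay apart for it at 0 and 7.85. With only the 4 libraries compared in the fit Cyr61 was called lower (limma adjusted p = 1.2e-04). In the same fit Ajuba was called higher (limma adjusted p = 8.3e-04). Axl was at 7.43 and 7.40 in untreated Tnfrsf1β-/- cells, 7.07 and 6.21 in untreated WT cells and 12.13 and 11.97 in libraries labelled Tnfrsf1α-/- with TNFα, so treated WT and the Tnfrsf1α-/- label with TNFα were high, as for Hnrnpk.

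**Figure D5:**
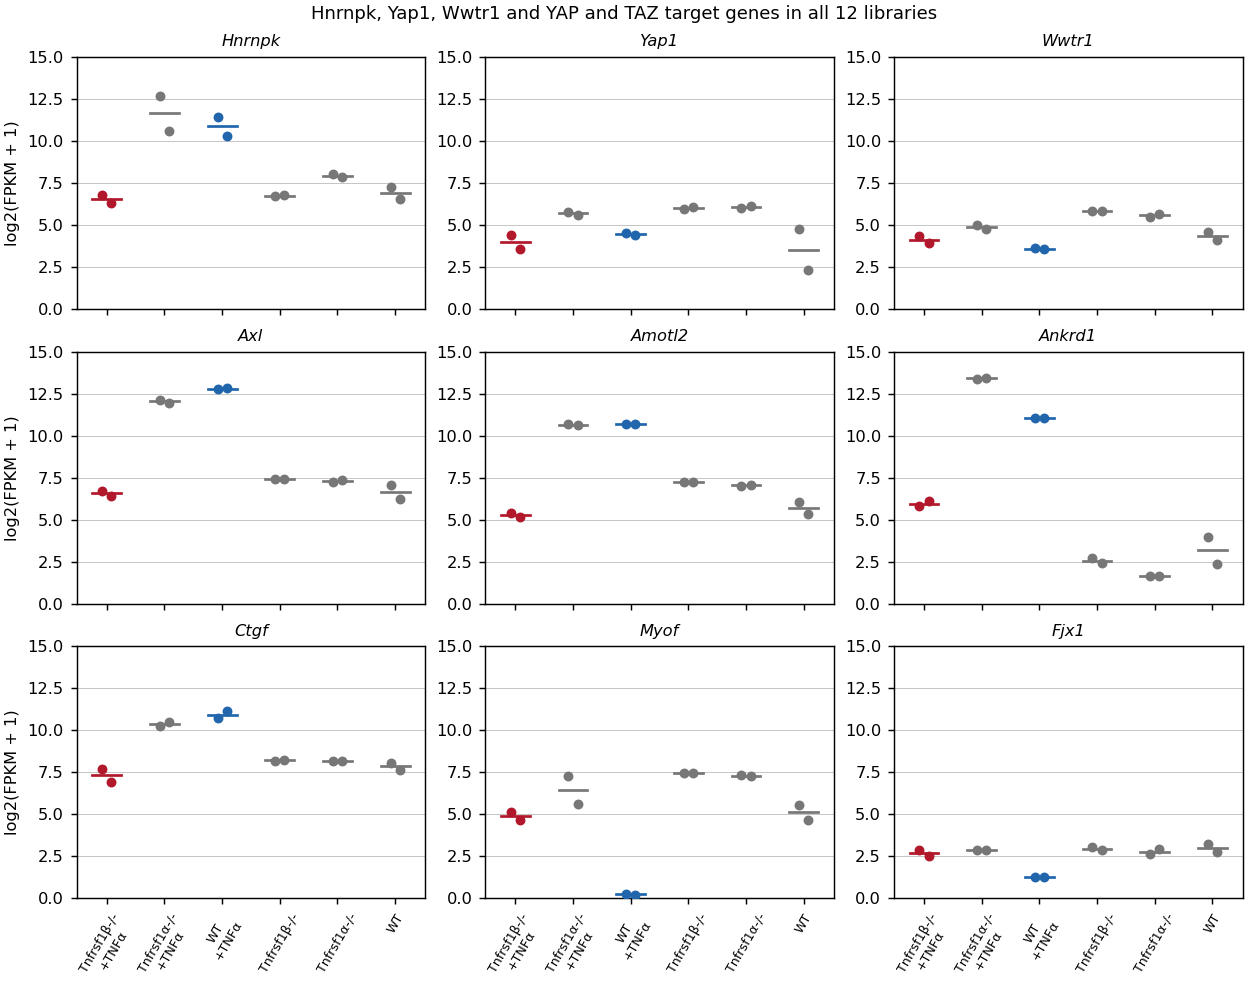
Levels in log2(FPKM + 1) of Hnrnpk, Yap1, Wwtr1 and 6 YAP and TAZ target genes in all 12 libraries, 2 points and their mean (bar) per group, with treated Tnfrsf1β-/- cells in red and treated WT cells in blue. Hnrnpk, Axl, Amotl2, Ankrd1 and Ctgf are lower in treated Tnfrsf1β-/- than in treated WT libraries, Yap1 and Wwtr1 lie at 3.58 to 4.38 in treated Tnfrsf1β-/- and 3.55 to 4.53 in treated WT libraries, and Myof and Fjx1 are higher in treated Tnfrsf1β-/- libraries.

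The TGF-beta pathway gave 5 higher and 5 lower of 25 tested (20% and 20%, against 14.7% and 36.3% of all genes). There were 6 and 3 under either scaling, 8 higher and 6 lower in the fit without the Tnfrsf1α-/- pair, and 5, 5, 5 and 5 higher and 4, 3, 3 and 3 lower when each library was left out. Inhba, a subunit of activin, was listed at 0 and 0 in treated Tnfrsf1β-/- cells, against 4.93 and 4.11 in treated WT cells (limma adjusted p = 8.4e-06). The ligand Tgfb1 was higher, at 5.11 and 5.32 in treated Tnfrsf1β-/- cells and 3.02 and 3.08 in treated WT cells (difference 2.16, SE 0.18, limma adjusted p = 1.7e-05). Tgfb2 was lower, at 5.49 and 0 in treated Tnfrsf1β-/- cells and 10.68 and 10.17 in treated WT cells (difference -7.68, SE 1.35, limma adjusted p = 0.0017), with treated Tnfrsf1β-/- libraries that lay apart from each other; without replicate 2 of that group the difference was -4.93. Id3, a target of BMP signals, was at 8.50 and 8.37 in treated Tnfrsf1β-/- cells and 4.96 and 5.02 in treated WT cells (difference 3.45, SE 0.60, limma adjusted p = 0.0016).

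Insulin-like growth factor (IGF) genes differed in 12 of 13 tested, 5 higher and 7 lower (38.5% and 53.8%, against 14.7% and 36.3% of all genes), with 3, 3, 3 and 3 higher and 7, 5, 5 and 7 lower when each library was left out. Igfbp1, an IGF binding protein made by the liver, was listed at 0 and 0 in treated Tnfrsf1β-/- cells, against 9.76 and 9.49 in treated WT cells (limma adjusted p = 1.6e-09). Igfbp3, the main IGF carrier of serum, was at 10.42 and 10.57 in treated Tnfrsf1β-/- cells and 13.45 and 13.43 in treated WT cells (difference -2.95, SE 0.17, limma adjusted p = 1.2e-06). The adaptors of the insulin and IGF receptors were lower, with Irs1 at 0.24 and 0.098 in treated Tnfrsf1β-/- cells and 2.61 and 2.23 in treated WT cells (difference -2.25, SE 0.24, limma adjusted p = 1.0e-04). Irs2 was at 0.68 and 0.38 in treated Tnfrsf1β-/- cells and 3.81 and 3.45 in treated WT cells (difference -3.10, SE 0.26, limma adjusted p = 1.7e-05). The receptor Igf1r was listed at 2.23 and 1.60 in treated Tnfrsf1β-/- cells, against 0 and 0 in treated WT cells (limma adjusted p = 0.0055). Igfbp7 was listed at 3.67 and 3.24 in treated Tnfrsf1β-/- cells, against 0 and 0 in treated WT cells (limma adjusted p = 1.4e-05). The ligands Igf1 and Igf2 were below the filter.

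Genes of cell division differed in both directions. Of 21 tested for DNA replication and nucleotide supply 8 were lower and 5 higher (38.1% and 23.8%, against 36.3% and 14.7% of all genes). Of 20 for mitosis 10 were lower and 3 higher (50% and 15%, against 36.3% and 14.7% of all genes). The share of replication genes called lower was thus near that of all genes, and the medians were -0.63 and -0.77, against -0.41 over all genes. Under median-ratio scaling the counts were 6 lower and 5 higher for replication, and 9 lower and 7 higher for mitosis. Tyms, thymidylate synthase, was at 4.62 and 4.50 in treated Tnfrsf1β-/- cells and 11.92 and 11.87 in treated WT cells (difference -7.34, SE 0.17, limma adjusted p = 3.4e-09). Mcm7, a subunit of the replicative helicase, was at 6.33 and 6.01 in treated Tnfrsf1β-/- cells and 12.73 and 13.06 in treated WT cells (difference -6.73, SE 0.19, limma adjusted p = 1.1e-08). Ccnb1, cyclin B1, was at 6.14 and 5.58 in treated Tnfrsf1β-/- cells and 12.49 and 12.65 in treated WT cells (difference -6.71, SE 0.20, limma adjusted p = 1.4e-08). The mitotic kinase Aurkb was at 4.94 and 4.65 in treated Tnfrsf1β-/- cells and 10.81 and 10.77 in treated WT cells (difference -6.00, SE 0.22, limma adjusted p = 4.7e-08). Cdk1, the kinase that cyclin B1 activates, was higher, at 8.63 and 8.67 in treated Tnfrsf1β-/- cells and 7.30 and 7.41 in treated WT cells (difference 1.29, SE 0.17, limma adjusted p = 3.1e-04). The proliferation marker Mki67 was at 4.14 and 3.85 in treated Tnfrsf1β-/- cells and 2.25 and 1.97 in treated WT cells (difference 1.88, SE 0.35, limma adjusted p = 0.0025). Leaving out libraries in turn gave 2, 4, 4 and 2 higher replication genes, and 10 lower and 3 higher mitosis genes each time.

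Cholesterol and fatty acid synthesis was one-sided. Of 23 tested genes 15 were lower and none higher (65.2% and 0%, against 36.3% and 14.7% of all genes), with a median of -1.94, and 12 were lower under median-ratio scaling and 10 under quantile normalization. Insig1, which retains the sterol sensor in the endoplasmic reticulum, was at 2.72 and 2.76 in treated Tnfrsf1β-/- cells and 9.76 and 9.45 in treated WT cells (difference -6.86, SE 0.24, limma adjusted p = 3.4e-08). Fdps, farnesyl diphosphate synthase, was at 6.25 and 6.70 in treated Tnfrsf1β-/- cells and 11.21 and 11.86 in treated WT cells (difference -5.06, SE 0.27, limma adjusted p = 7.0e-07). Srebf1, a master regulator of lipid genes, was at 2.90 and 2.87 in treated Tnfrsf1β-/- cells and 4.93 and 4.71 in treated WT cells (difference -1.94, SE 0.43, limma adjusted p = 0.0057). Sqle, squalene epoxidase, did not pass (limma adjusted p = 0.1), but did as lower in the fit without the Tnfrsf1α-/- pair (limma adjusted p = 3.0e-04).

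Genes of the unfolded protein and amino acid responses were lower in 12 of 20 tested and higher in none (60% and 0%, against 36.3% and 14.7% of all genes), with 9 lower and 1 higher under median-ratio scaling. Phgdh, the first enzyme of serine synthesis, was at 6.89 and 6.74 in treated Tnfrsf1β-/- cells and 10.78 and 11.29 in treated WT cells (difference -4.22, SE 0.22, limma adjusted p = 5.9e-07). Asns, asparagine synthetase, was at 3.15 and 2.78 in treated Tnfrsf1β-/- cells and 6.92 and 6.92 in treated WT cells (difference -3.95, SE 0.61, limma adjusted p = 8.4e-04). Chac1, which degrades glutathione, was at 3.43 and 2.39 in treated Tnfrsf1β-/- cells and 7.14 and 7.02 in treated WT cells (difference -4.17, SE 0.71, limma adjusted p = 0.0014). The regulator Atf4 was at 7.52 and 6.69 in treated Tnfrsf1β-/- cells and 7.37 and 7.54 in treated WT cells (difference -0.35, SE 0.33, limma adjusted p = 0.4).

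Targets of the antioxidant regulator NRF2 were lower in 9 of 18 tested and higher in none (50% and 0%, against 36.3% and 14.7% of all genes), with a median of -1.51; quantile normalization gave 9 lower and 1 higher. Gsta2, a glutathione transferase abundant in hepatocytes, was listed at 0 and 0 in treated Tnfrsf1β-/- cells, against 7.53 and 7.70 in treated WT cells (limma adjusted p = 1.8e-09). Osgin1, an oxidative stress-induced growth inhibitor, was at 1.54 and 1.54 in treated Tnfrsf1β-/- cells and 6.50 and 6.71 in treated WT cells (difference -5.07, SE 0.30, limma adjusted p = 1.3e-06). Gclm, a subunit of the enzyme that limits glutathione synthesis, was at 4.75 and 3.74 in treated Tnfrsf1β-/- cells and 6.59 and 6.44 in treated WT cells (difference -2.27, SE 0.30, limma adjusted p = 3.2e-04). Hmox1, heme oxygenase, was at 5.40 and 3.94 in treated Tnfrsf1β-/- cells and 7.74 and 7.79 in treated WT cells (difference -3.10, SE 0.66, limma adjusted p = 0.0046). Nqo1, a widely used target of NRF2, did not pass (limma adjusted p = 0.59). In the fit without the Tnfrsf1α-/- pair it was called higher (difference 0.71, limma adjusted p = 0.016). That fit gave 1 higher and 13 lower NRF2 targets.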

How the data were processed

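Total RNA of rat HPCs was extracted with Trizol and made into Illumina TruSeq libraries, per the labels' protocols. The authors deposited 1 table of the whole series with 1 value per gene and library. The values are as deposited by the authors and were read as log2(FPKM + 1), a scale inferred from their range of 0 to 16.8; how the authors computed FPKM before taking log2 is not stated in the labels. Which aligner, quantifier and genome build were used is not given in the sources used here, and read depth is unknown, so no counting interval is given. Of 22730 lines, 346 have no symbol and were left out, 1835 of the rest share a symbol with another line and were kept as separate lines, and 10524 were not tested because their mean, back-transformed with a pseudocount of 1, was under 1 FPKM.

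Group means of all 12 libraries in 6 groups were fitted with limma 3.58.1 in R 4.3.3 with empirical Bayes moderation and an intensity trend, and p-values were two-sided and adjusted after Benjamini and Hochberg over the 11860 lines tested. Scaling alternatives were median-ratio scaling of FPKM and quantile normalization. On simulated data with 100 genes moved at each size, 22% of 2-fold and 87% of 8-fold changes were called, and 0.0343% of unmoved genes. The simulation used normal noise, the same mean for all groups before the moves, and moved genes of higher mean level only. The real libraries hold many values of 0 and differ in most genes called here, so these rates may not hold for them.

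The genes, lists and tests were chosen with earlier results of these data known. Genes are named by a rule: Hnrnpk, Yap1, Wwtr1 and both receptor genes; the 12 highest and 12 lowest differences among called genes at 1 or above in all 4 libraries, the 12 highest levels among called genes at 0 in both libraries of the other group, in each direction, and up to 6 called members with the smallest p per list and direction. Outside that rule, and chosen after their values were seen, are Akr1c2, Akr1c3, Ankrd1, Apoa1, Ass1, Epcam, Foxa2, Hmox1, Krt7, Sox9, Srebf1, Tf and list members named as not passing. A few genes that the rule names are not reported here. Promoter sequences are from RefSeq, GRCr8, in which 10450 of 11860 symbols (88.1%) matched directly.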

Additional observations from a re-analysis of the deposited data

How the results depend on the processing

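The number of called genes was 6046, and stayed within 1.5 times of that under every alternative but leaving out treated WT replicate 1, which gave 3937. Leaving out each library in turn gave 3937 to 5117 called, 1041 to 1281 higher and 2866 to 3836 lower; the fits with 1 library in a group assume that it varies like the other groups. Median-ratio scaling gave 3059 higher and 2541 lower, and quantile normalization 2839 higher and 2515 lower, against 1743 and 4303. Fitting only the 4 libraries compared gave 7715 called genes, leaving out the 2 libraries labelled Tnfrsf1α-/- with TNFα gave 7815, leaving out the 4 untreated knockout-labelled libraries gave 4360, and a filter at a mean of 5 FPKM gave 4628 of 8698 tested. A pseudocount of 0.1 gave 6196, no filter 6908 of 17795 and no intensity trend 6047. With the replicate number as a block, 6360 were called, 1883 higher and 4477 lower. Deviations of same-numbered libraries correlated at r = 0.236 across 11860 genes, and with 2 pairs the samples share only a number.

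Of 179 called lines of the genes named in the text, 161 passed with the same direction under every one of the 14 alternatives that tested them; 12 of the 179 were under the filter at 5 FPKM. The other 18 lost the call under 1 to 8 alternatives: Cebpb, Cflar, Cx3cl1, Icam1, Irf1, Krt7, Ptpn14, Rela, Rnf31, Sharpin, Snai1, Tead3, Tfrc, Tnfaip3, Tnfrsf1a, Traf2, Upk3b and Wwc1. Leaving out the 4 untreated knockout-labelled libraries ended 12 of these calls. Leaving out just the 2 libraries labelled Tnfrsf1α-/- with TNFα ended none and added 13. Fitting only the 4 libraries compared ended 1, that of Cebpb (limma adjusted p = 0.10), and added 13. The sign of the difference turned for 3 named genes, none of them called: Yap1, at 0.18 under median-ratio scaling and 0.18 under quantile normalization; Atf4, at 0.36 and 0.19 under these and from -0.77 to 0.062 with single libraries left out; and Cxcl2, at 0.10 under median-ratio scaling and from -0.28 to 0.038 with single libraries left out. The cause was not tested.

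No count or depth is known for any library, so a value of 0 cannot be told from a gene that was measured too thinly. Each group has 2 libraries, and with 1 of them left out the group's own spread is not measured. The libraries labelled Tnfrsf1α-/- with TNFα differ from each other in many genes and widen the shared spread, which lowers the number of calls. Whether the make-up of the treated WT libraries bears on these calls was not tested.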

Other observations

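Glycolysis and hypoxia genes gave 4 higher and 4 lower of 22 tested in treated Tnfrsf1β-/- cells (18.2% and 18.2%, against 14.7% and 36.3% of all genes), with a median difference of -0.63, against -0.41 over all genes. Under median-ratio scaling 4 were higher and 2 lower, there were 4 higher and 11 lower in the fit without the Tnfrsf1α-/- pair, and without each library in turn the number lower was 5, 2, 2 and 4. Pkm, pyruvate kinase, was at 11.09 and 10.55 in treated Tnfrsf1β-/- cells and 9.0 and 8.89 in treated WT cells (difference 1.87, SE 0.32, limma adjusted p = 0.0016). Pfkp, the platelet form of phosphofructokinase, was at 4.99 and 4.11 in treated Tnfrsf1β-/- cells and 0.094 and 0.13 in treated WT cells (difference 4.44, SE 0.31, limma adjusted p = 4.8e-06). Ndrg1, which rises in low oxygen, was at 5.54 and 3.64 in treated Tnfrsf1β-/- cells and 9.94 and 10.14 in treated WT cells (difference -5.45, SE 0.52, limma adjusted p = 4.3e-05).

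Of 14 tested targets of p53 3 were higher and 5 lower (21.4% and 35.7%, against 14.7% and 36.3% of all genes), the lower share near that of all genes, with 5 and 3 under either scaling. Phlda3, an inhibitor of Akt, was at 8.63 and 9.23 in treated Tnfrsf1β-/- cells and 0.046 and 0.087 in treated WT cells (difference 8.86, SE 0.26, limma adjusted p = 1.2e-08). Fas, the death receptor, was at 3.59 and 3.59 in treated Tnfrsf1β-/- cells and 0.24 and 0.31 in treated WT cells (difference 3.31, SE 0.32, limma adjusted p = 4.2e-05). Sesn1, a stress-induced inhibitor of mTORC1, was at 1.12 and 1.26 in treated Tnfrsf1β-/- cells and 3.66 and 3.56 in treated WT cells (difference -2.42, SE 0.26, limma adjusted p = 9.1e-05). Heat shock genes were lower in 6 and higher in 2 of 15 tested lines (40% and 13.3%, against 36.3% and 14.7% of all genes), shares near those of all genes, and 5 were in each direction under either scaling. Hspb1, a small heat shock protein, was at 7.04 and 7.62 in treated Tnfrsf1β-/- cells and 1.86 and 1.68 in treated WT cells (difference 5.56, SE 0.81, limma adjusted p = 5.9e-04). Hsph1, a large chaperone, was at 5.08 and 4.55 in treated Tnfrsf1β-/- cells and 7.37 and 7.19 in treated WT cells (difference -2.46, SE 0.41, limma adjusted p = 0.0013). Leaving out each library in turn gave 1, 2, 2 and 1 higher heat shock lines.

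Some differences were noticed only after the values had been seen. Sox2, a factor of pluripotent and neural stem cells, was listed at 0 and 0 in treated Tnfrsf1β-/- cells, against 9.90 and 9.80 in treated WT cells (limma adjusted p = 1.6e-09). Tmsb4x, the actin-binding peptide thymosin beta-4, was at 13.54 and 14.52 in treated Tnfrsf1β-/- cells and 0.51 and 0.46 in treated WT cells (difference 13.54, SE 0.39, limma adjusted p = 1.2e-08). Tgm2, a transglutaminase that crosslinks matrix proteins, was at 7.16 and 7.51 in treated Tnfrsf1β-/- cells and 14.17 and 14.45 in treated WT cells (difference -6.98, SE 0.24, limma adjusted p = 3.2e-08). The secreted chaperone Clu, clusterin, was at 6.79 and 5.86 in treated Tnfrsf1β-/- cells and 13.91 and 14.19 in treated WT cells (difference -7.73, SE 0.30, limma adjusted p = 6.4e-08). Of 94 tested ribosomal protein genes 36 were higher and 6 lower, against 14.7% and 36.3% of all genes. Their median was 0.71, against -0.41 over all genes. Under median-ratio scaling 61 were higher and 2 lower, against 25.8% and 21.4% of all genes. Tmsb4x and ribosomal protein genes have many near-identical copies in mammalian genomes, and how reads shared by such copies were counted is not given in the sources used here.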
